A study of Mus musculus with 6 samples.

Results

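The genes described here are 10 genes of blood vessel signalling and identity, chosen by symbol: the ligand Vegfa, its receptors Kdr and Flt1, the angiopoietins Angpt1 and Angpt2, their receptor Tek and its co-receptor Tie1, and the endothelial surface genes Pecam1, Cdh5 and Cd34. All 10 were on the array, among 18193 genes, and each is given by the brightest of its probe sets, by mean log2 signal over the 6 arrays. They were measured in Lyz2+/EpCAM+ cells of adult mouse lungs (3 arrays), named alveolar type II cells in the series, and in Muc1+/Pdpn+ cells of mouse lungs at embryonic day 18 (E18; 3 arrays), named bipotent progenitors there. The E18 cells were sorted by flow cytometry, and for the adult cells the labels say that they were isolated, without the method. Each array is described as a separate biological replicate. Age and the markers of the cells differ together. Strain, sex, adult age, pooling of animals and the way Lyz2 and Muc1 were detected are not given in the sources used here.

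VEGF-A is a growth factor that epithelial cells of the lung secrete, and it acts on endothelial cells through the receptor kinases encoded by Kdr and Flt1. Angiopoietins are a second ligand family: Angpt1 activates the receptor kinase encoded by Tek and stabilises vessels, Angpt2 mostly opposes it in resting vessels, and Tie1 is a relative of Tek that takes part in the same complex. Pecam1 and Cdh5 encode adhesion molecules of endothelial junctions, and Cd34 encodes a surface sialomucin of capillary endothelium and of blood progenitors. Vegfa is thus known as a ligand gene of lung epithelium, while the other genes are mainly known from endothelial cells or, for Angpt1, from perivascular cells. Which cells gave the Vegfa signal in these samples was not measured.

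On every one of the 10 genes the mean signal was lower in the adult arrays than in the E18 arrays. With limma and adjustment over all genes tested, 4 of the 10 genes fell, 0 rose and 6 did not pass. The 4 were Vegfa (3.44-fold lower), Tie1 (at least 4.88-fold lower), Cdh5 (9.78-fold lower) and Cd34 (24.7-fold lower). Of the 13335 genes tested, 4.57% were called lower, 1.41% higher and 5.98% in either direction. At an unadjusted p under 0.05 the count was 9 of the 10 genes lower and 0 higher, against 15.1% of all genes tested lower and 21.6% in either direction. These shares of all genes also apply to the counts in the lists below. For 7 of the 10 genes every adult array lay below every E18 array, against 18.8% of all genes tested in that direction and 28.9% in either. The median difference of the 10 genes was -2.41 on the log2 scale, adult minus E18, against -0.17 over all genes tested. The latter is below 0, so most genes tested also had a lower adult mean. Intensities carry no read depth, so 3 arrays a group set the precision. In bulk samples, fewer cells of a type and less RNA per cell cannot be told apart.

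The third replicates of both groups stood apart before any of these genes is considered. Poly-A spike-in signals had a median log2 of 14.4 to 14.6 in replicate 3 of the groups and of 8.34 to 11.1 in replicates 1 and 2, and no label names a batch. Adult replicate 1 had a difference of 3.55 between the 3′ and 5′ control probe sets of beta-actin on the log2 scale, while the other 5 arrays had 0.44 to 0.64. E18 replicates 1 and 2 correlated at 0.983 across genes, adult arrays correlated with each other at 0.777 to 0.913, and the third E18 array correlated with the other E18 arrays at 0.921 and 0.928. Values without each array, in replicates 1 and 2 alone and in replicate 3 are given beside the results they change.

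Promoter sequences of 6 of the 10 genes were taken from RefSeq on build GRCm38.p6, and those of the ligand, its receptor Kdr and the genes Tie1 and Cd34 are shown because the results below turn on them. Each line gives the 250 bases upstream of the annotated start, 5′ to 3′ on the gene's strand. Capitals mark the letters GGAAG or ACGTG on either strand. GGAAG is a form of the core that ETS factors of endothelial cells bind, and ACGTG is a form of the core that hypoxia-inducible factors bind. Other forms of these cores were not searched and are not marked.
Vegfa, chr17:46032378-46032627, minus strand: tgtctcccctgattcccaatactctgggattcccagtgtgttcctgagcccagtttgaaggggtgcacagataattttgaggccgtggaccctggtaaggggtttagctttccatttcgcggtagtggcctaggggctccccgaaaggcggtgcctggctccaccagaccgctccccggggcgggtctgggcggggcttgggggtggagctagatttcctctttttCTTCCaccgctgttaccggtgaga
Vegfa, chr17:46025164-46025413, minus strand: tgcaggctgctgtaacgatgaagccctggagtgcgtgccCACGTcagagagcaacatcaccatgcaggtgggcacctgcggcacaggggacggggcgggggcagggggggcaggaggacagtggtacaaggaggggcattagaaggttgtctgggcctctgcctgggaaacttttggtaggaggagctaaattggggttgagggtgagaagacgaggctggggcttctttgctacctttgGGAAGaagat
Kdr, chr5:75978456-75978705, minus strand: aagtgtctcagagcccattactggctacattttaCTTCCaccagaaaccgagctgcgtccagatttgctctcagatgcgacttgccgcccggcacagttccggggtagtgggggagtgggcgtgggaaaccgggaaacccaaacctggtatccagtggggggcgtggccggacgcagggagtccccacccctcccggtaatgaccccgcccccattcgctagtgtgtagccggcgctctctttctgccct
Tie1, chr4:118489850-118490099, minus strand: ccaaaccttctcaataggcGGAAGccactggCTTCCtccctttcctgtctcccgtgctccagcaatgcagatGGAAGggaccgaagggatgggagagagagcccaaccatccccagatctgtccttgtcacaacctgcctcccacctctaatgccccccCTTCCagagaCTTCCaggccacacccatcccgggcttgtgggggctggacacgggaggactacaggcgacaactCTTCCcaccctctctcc
Cd34, chr1:194938571-194938820, plus strand: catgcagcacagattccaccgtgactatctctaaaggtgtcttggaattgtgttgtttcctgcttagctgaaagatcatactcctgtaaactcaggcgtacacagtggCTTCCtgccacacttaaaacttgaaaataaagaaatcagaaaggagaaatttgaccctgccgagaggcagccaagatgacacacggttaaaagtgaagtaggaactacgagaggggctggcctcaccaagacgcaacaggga
Vegfa has 2 annotated starts, listed upstream first, and ACGTG was found once in the window of that second start and in no other of the 7 windows read. That second window lies downstream of the first start, within the stretch that transcripts from the first start run through. Its match is therefore not upstream of the whole gene and is not read here as a promoter element. ACGTG was found in 16.6% of all 32851 promoter windows of this length. GGAAG was found 6 times in the Tie1 window, 3 times in that of Flt1, once in each of the Kdr, Cd34 and both Vegfa windows, and 0 times in that of Tek. At least 1 GGAAG was found in 64.1% of all windows, 3 or more in 10.7% and 6 or more in 0.344%. These are matches of letters, not binding sites, and they say nothing about which factor acted in these cells. A window without a match can hold another form of the core.

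Vegfa, the epithelial ligand, was lower in all adult arrays than in any E18 array. Its probe set 1420909_at read log2 signals of 9.75, 9.15 and 9.23 in adult replicates 1, 2 and 3, and 11.04, 10.87 and 11.56 in E18 replicates 1, 2 and 3. The spread within each group was small beside the gap between them, and E18 replicate 3 was the highest of all. The means were 9.37 ± 0.32 in adult arrays and 11.16 ± 0.36 in E18 arrays (SD, n = 3 each), a difference of -1.78 (SE 0.33, 95% interval -2.54 to -1.02, limma adjusted p = 0.0240). Taken apart, replicates 1 and 2 gave -1.51 and replicate 3 gave -2.33. The call was lost without adult replicate 2 (adjusted p = 0.0899), E18 replicate 1 (0.132), E18 replicate 2 (0.110) or E18 replicate 3 (0.0632), with differences of -1.97 to -1.58 over the 6 fits that each left out an array. The other Vegfa probe set, 1451959_a_at, was dimmer, at 7.10, 6.73 and 8.03 in adult arrays and 7.51, 7.75 and 9.13 in E18 arrays, a difference of -0.85 with groups that overlapped. With both probe sets averaged the difference of Vegfa was -1.32 and did not pass (adjusted p = 0.103).

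**Figure D1:**
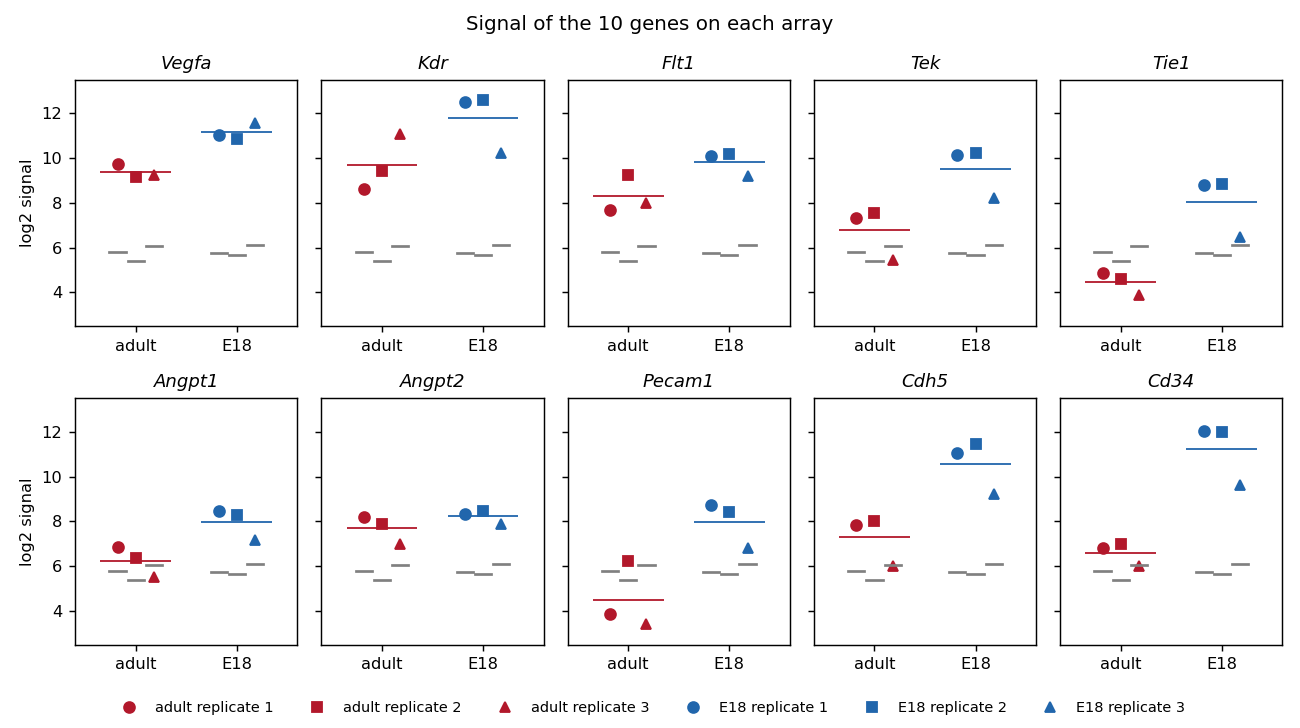
Log2 signal of the 10 genes (y axis) on the adult arrays (red, left of each panel) and E18 arrays (blue, right); circles, squares and triangles are replicates 1, 2 and 3, coloured lines are group means and short grey lines mark the detection floor of each array. Vegfa is highest in E18 replicate 3, whereas the other 9 genes are lowest of the E18 arrays there, and Kdr alone of the 10 is highest of the adult arrays in adult replicate 3.

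The VEGF receptors had lower means in the adult arrays, but neither passed the test. Kdr, which carries most of the VEGF-A signal in endothelium, read 8.61, 9.43 and 11.10 in adult replicates 1, 2 and 3 and 12.51, 12.62 and 10.21 in E18 replicates 1, 2 and 3 (probe set 1449379_at). The groups overlapped because adult replicate 3 lay above E18 replicate 3. The difference was -2.07 (SE 0.82, 95% interval -3.97 to -0.16, adjusted p = 0.197), where the interval is for this gene alone and the p is adjusted over all genes tested. In replicates 1 and 2 alone it was -3.54 (adjusted p = 0.00597), and in replicate 3 it was 0.89, which is 1 array against 1 and has no test. Without adult replicate 3 the difference was -2.76 and passed (adjusted p = 0.0392). Of the 6 fits that each left out an array, this was the only 1 in which Kdr passed.

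Flt1, a receptor that binds VEGF-A tightly and signals weakly, read 7.67, 9.23 and 7.98 in adult arrays and 10.08, 10.17 and 9.22 in E18 arrays (probe set 1419300_at). Adult replicate 2 and E18 replicate 3 met at nearly the same signal, so the groups overlapped. The difference was -1.53 (SE 0.50, adjusted p = 0.128), and over the fits without 1 array it was -1.997 to -1.21 and did not pass in any. Of its 3 other probe sets, 1440926_at and 1451756_at were lower in every adult array than in any E18 array, by differences of -1.25 and -1.27. The last, 1454037_a_at, was near the detection floor, the signal that 40% of probe sets on an array lie under, with a difference of -0.53 and overlapping groups.

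Of the angiopoietin receptor Tek and its co-receptor Tie1, Tie1 fell and Tek did not pass. Tie1 read 4.87, 4.61 and 3.86 in adult arrays and 8.82, 8.82 and 6.49 in E18 arrays (probe set 1416238_at). Every adult value was under that array's detection floor and every E18 value was above it. The measured means were 4.45 ± 0.52 in adult arrays and 8.04 ± 1.35 in E18 arrays (adjusted p = 0.0322). Against the floor Tie1 was at least 4.88-fold lower in the adult arrays. It was tested only through its E18 arrays, so a lower adult signal was built into its being tested. With low values raised to the floor the adjusted p was 0.0801, and after quantile normalization it was 0.0559. The call was lost without adult replicate 1 (adjusted p = 0.0716), adult replicate 2 (0.1045), E18 replicate 1 (0.171) or E18 replicate 2 (0.172).

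Tek, the receptor of both angiopoietins, read 7.33, 7.56 and 5.46 in adult arrays and 10.12, 10.24 and 8.23 in E18 arrays (probe set 1418788_at). The groups did not overlap, and replicate 3 minus the mean of replicates 1 and 2 was -1.98 in adult arrays and -1.95 in E18 arrays. The difference was -2.75 (SE 0.74, 95% interval -4.47 to -1.03, adjusted p = 0.0781). Replicates 1 and 2 gave -2.74 by themselves (adjusted p = 0.00517), and replicate 3 gave -2.77. With replicate 3 as a block against the other replicates Tek passed (adjusted p = 0.00714). Of all 13335 genes tested, 2996 passed in replicates 1 and 2 alone and 897 with that block. Tek passed in 0 of the 6 fits that each left out an array (adjusted p = 0.0509 to 0.294).

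The angiopoietin ligands themselves did not pass. Angpt1 read 6.86, 6.35 and 5.51 in adult arrays and 8.46, 8.28 and 7.17 in E18 arrays (probe set 1439066_at), with no overlap and a difference of -1.73 (SE 0.54, adjusted p = 0.115). Replicates 1 and 2 gave -1.77 (adjusted p = 0.0216), and replicate 3 gave -1.66. Angpt1 passed in 0 of the 6 fits that each left out an array (adjusted p = 0.081 to 0.438). Angpt2 read 8.18, 7.89 and 7.01 in adult arrays and 8.34, 8.46 and 7.88 in E18 arrays (probe set 1448831_at). Its groups overlapped and its difference was the nearest to 0 among the 10 genes, at -0.53 (SE 0.42, 95% interval -1.51 to 0.44, adjusted p = 0.513). The interval includes a fall of over 2-fold, so the data do not show that Angpt2 was alike in the populations. The second probe sets of Angpt1 and Angpt2 were under the floor on all 6 arrays.

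Among the endothelial surface genes Cd34 and Cdh5 fell, and Pecam1 did not pass. Cd34 read 6.79, 6.97 and 6.02 in adult arrays and 12.05, 11.98 and 9.63 in E18 arrays (probe set 1416072_at). No adult array came near any E18 array, and adult replicate 3 was just under its floor. The means were 6.59 ± 0.51 in adult arrays and 11.22 ± 1.38 in E18 arrays, a difference of -4.63 (SE 0.68, 95% interval -6.20 to -3.05, adjusted p = 0.0118). Replicates 1 and 2 gave -5.13, and replicate 3 gave -3.61. The call was lost without adult replicate 2 (adjusted p = 0.0526), E18 replicate 1 (0.0745) or E18 replicate 2 (0.0731), with differences of -5.42 to -4.21 over the 6 fits.

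Cdh5, the cadherin of endothelial junctions, read 7.82, 8.02 and 6.02 in adult arrays and 11.06, 11.46 and 9.22 in E18 arrays (probe set 1433956_at). The groups did not overlap, and replicate 3 was again low in both groups, at -1.90 in adult arrays and -2.04 in E18 arrays relative to the mean of replicates 1 and 2. The difference was -3.29 (SE 0.74, 95% interval -5.00 to -1.58, adjusted p = 0.0454), with -3.34 from replicates 1 and 2 and -3.20 from replicate 3. The call was lost without adult replicate 1 (adjusted p = 0.0933), adult replicate 2 (0.102), E18 replicate 1 (0.182) or E18 replicate 2 (0.184), and after either rescaling of the arrays. A second probe set, 1422047_at, was at or above the floor on 1 array and differed by -0.01.

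Pecam1, an adhesion molecule of endothelium that platelets and leukocytes also carry, read 3.84, 6.21 and 3.41 in adult arrays and 8.71, 8.44 and 6.81 in E18 arrays (probe set 1421287_a_at). Adult replicates 1 and 3 were under their floors and adult replicate 2 was above its own, and all adult values lay below all E18 values. The difference was -3.50 (SE 0.86, 95% interval -5.51 to -1.49, adjusted p = 0.0598), or -1.96 with low values raised to the floor. It passed without adult replicate 2 (-4.36, adjusted p = 0.0479) or adult replicate 3 (-2.96, adjusted p = 0.0456).

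**Figure D2:**
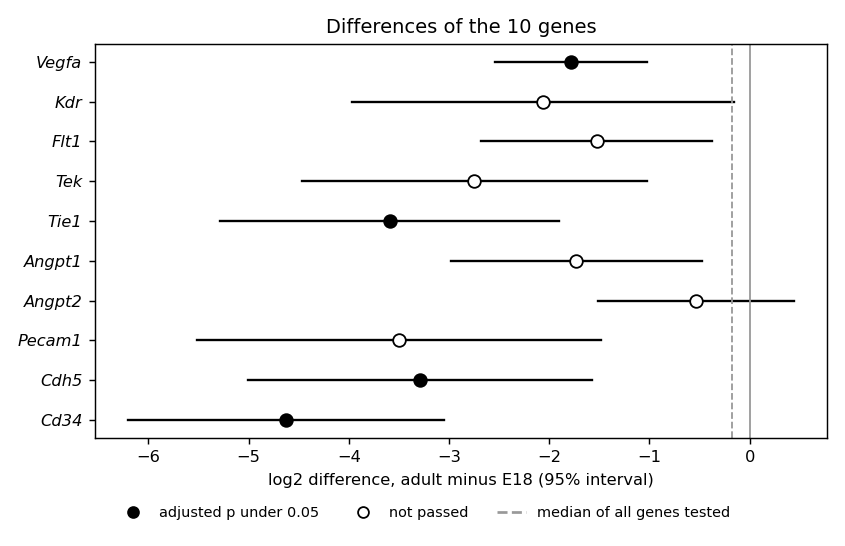
Log2 difference, adult minus E18 (x axis), of each of the 10 genes, with its 95% interval from the limma fit; filled points had an adjusted p under 0.05 and open points did not. Cd34 has the lowest value (-4.63), Angpt2 is nearest to 0 (-0.53) with an interval that includes 0, and the dashed line marks the median of all genes tested (-0.17).

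In E18 replicate 3 all 9 genes other than Vegfa were at their lowest of the E18 arrays, where 49.4% of all genes tested were, and 7 of the 9 were lower than the mean of E18 replicates 1 and 2 by at least 1 on the log2 scale, where 9.45% of all genes were. Relative to that mean, E18 replicate 3 read -2.38 for Cd34, -2.36 for Kdr, -2.33 for Tie1, -2.04 for Cdh5, -1.95 for Tek, -1.77 for Pecam1 and -1.20 for Angpt1. Vegfa was higher there, by 0.61. Of the 25 genes in the list of other endothelial genes, 23 were lowest in E18 replicate 3 and 19 were lower there by at least 1. Other cell type lists differed in that array too: the median of replicate 3 minus the mean of E18 replicates 1 and 2 was -1.45 for smooth muscle, -1.35 for pericyte, -1.29 for mesothelial and 1.10 for leukocyte genes. The spread of these genes among E18 arrays was thus mostly between 1 array and the others, and whether the difference in poly-A signals had a part in it was not tested.

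In adult replicate 3 Kdr differed from the other 9 genes. That array was the lowest adult array for 7 of the 10 genes, where 29.3% of all genes tested were lowest. Of the 10 genes Kdr alone was highest there among adult arrays, higher than the mean of adult replicates 1 and 2 by 2.08. Such values were common in that array, which was the highest adult array for 46.2% of all genes tested and higher by at least 1 for 24.7%. Epithelial markers were also high in that array, by a median of 3.10 over 6 genes relative to the mean of adult replicates 1 and 2. The summed signal of those 6 genes was 30309, 27178 and 67550 in adult replicates 1, 2 and 3, against 34680 to 42244 in E18 arrays. Most of the sum in adult replicates 1 and 2 came from Sftpc (14.67 and 14.50 in log2). Epcam, Cdh1, Krt8 and Krt18 were lower in those adult replicates than in any E18 array, while Sftpc and Sftpb were not. Epcam, the adhesion molecule that the adult cells were selected for, read 7.85, 8.50 and 10.68 in adult replicates 1, 2 and 3. Of the 25 other endothelial genes 18 were lowest in adult replicate 3 and 4 were highest there, and 2 of these, chosen for mention after their values were seen, were higher by at least 1: the endothelial Notch receptor Notch4 (6.51, 6.48 and 10.04 in adult replicates 1, 2 and 3) and the receptor Acvrl1 (7.68, 8.64 and 9.22). Whether the epithelial content of adult replicate 3 had a part in the Kdr signal was not tested.

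**Figure D3:**
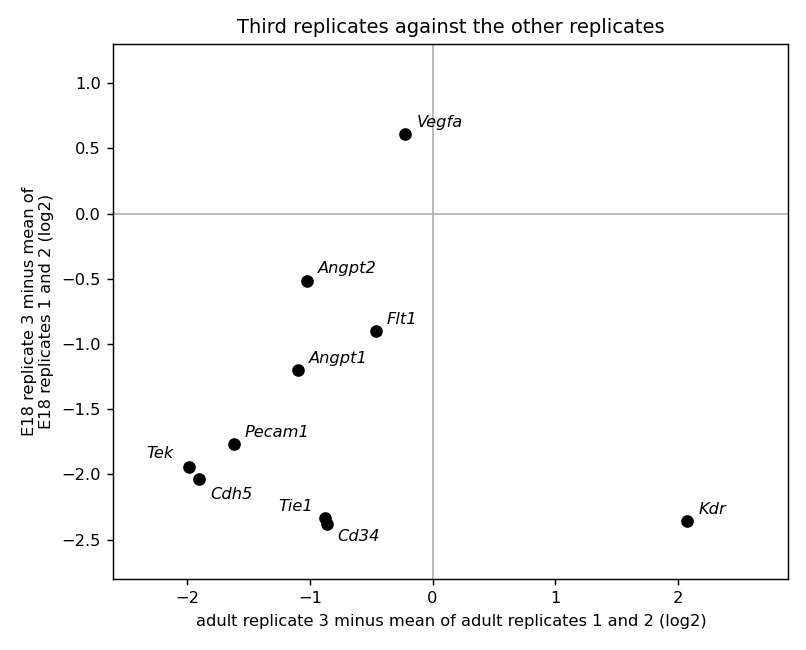
Signal in replicate 3 minus the mean of replicates 1 and 2, on the log2 scale, in the adult arrays (x axis) and the E18 arrays (y axis), 1 point a gene. Vegfa (-0.22, 0.61) and Kdr (2.08, -2.36) stand away from the other 8 genes, which are below 0 on both axes.

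Whether Vegfa changed by another amount than each endothelial gene was asked within each array, from the log2 signal of Vegfa minus that of the other gene. Relative to Cd34, Vegfa was 2.95, 2.18 and 3.21 in adult arrays and -1.01, -1.11 and 1.93 in E18 arrays, a difference of 2.84 with groups that did not overlap. Relative to Angpt2 it was 1.57, 1.26 and 2.22 in adult arrays and 2.70, 2.41 and 3.68 in E18 arrays, a difference of -1.25, again without overlap. Both had an exact two-sided permutation p of 0.1, the smallest that 3 arrays against 3 can give, so this comparison could not reach 0.05. The other 7 differences had exact permutation p values of 0.2 to 1. They were 0.28 for Kdr and -0.25 for Flt1, which were above the floor on every array. Where some adult values lay under the floor, raising those to it gave 1.497 for Cdh5 (1.51 as measured), 0.77 for Tek (0.97), -0.23 for Angpt1 (-0.05) and 0.18 for Pecam1 (1.71). For Tie1, under the floor on all adult arrays, it gave 0.51 (1.81 as measured).

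Further genes of VEGF and angiopoietin signalling had lower means in the adult arrays as well. All 11 genes tested had lower means, with a median difference of -1.40, and 2 of them fell while 9 did not pass. At an unadjusted p under 0.05 the counts were 8 lower and 0 higher, where 15.1% of all genes tested were lower. Flt4, the receptor of VEGF-C and VEGF-D on lymphatic endothelium, read 5.07, 6.36 and 5.90 in adult arrays and 8.78, 9.18 and 8.20 in E18 arrays (-2.94, SE 0.48, adjusted p = 0.0173), with adult replicates 1 and 3 under their floors. The other Flt4 probe set was above the floor on all 6 arrays and differed by -0.76. Nrp2, a co-receptor of the VEGF receptors, read 8.37, 8.34 and 9.12 in adult arrays and 10.10, 10.42 and 10.48 in E18 arrays (-1.72, SE 0.34, adjusted p = 0.0292). Flt4 no longer passed without E18 replicate 1 or 2 (adjusted p up to 0.118), and Nrp2 passed only without adult replicate 3 among the fits that left out 1 array (adjusted p up to 0.166).

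Of the factors that control Vegfa under low oxygen and their regulators, Hif3a fell, the other 8 of 9 genes did not pass, 6 of the 9 had lower adult means, and the median difference was -0.33. Hif1a, the inducible subunit found in most cells, differed by 0.06 (12.82 ± 0.46 in adult arrays, 12.75 ± 0.02 in E18 arrays, adjusted p = 0.928), while 2 dimmer probe sets differed by -0.13 and -0.10. Epas1, its relative in endothelium and type II cells, read 12.14, 12.44 and 13.88 in adult arrays and 13.32, 13.31 and 11.47 in E18 arrays (0.12, adjusted p = 0.933). Like Kdr, it was highest of the adult arrays and lowest of the E18 arrays in replicate 3. The gene that fell was Hif3a, a family member whose forms can oppose the others (-3.45, SE 0.63, adjusted p = 0.0237), and of its other probe sets that reached the floor on at least 3 arrays, 1 differed by -5.13 and 1 by 1.01. Without adult replicate 2 or any of the E18 replicates Hif3a did not pass (adjusted p up to 0.121).

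Other endothelial genes fell or failed to pass in the same direction. All 25 genes tested in that list had lower means in adult arrays, with a median difference of -2.15 against -0.17 over all genes tested. Of these, 3 passed and 22 did not, with 16 lower and 0 higher at an unadjusted p under 0.05, where 15.1% of all genes tested were lower. The transcription factor Sox7 (-3.03, SE 0.57, adjusted p = 0.0258), the surface sialomucin Emcn (8.02-fold lower, SE 0.58 in log2, adjusted p = 0.0277) and the junction molecule Esam (-2.87, SE 0.46, adjusted p = 0.0165) were the 3. Each of them lost its call without adult replicate 2, E18 replicate 1 or E18 replicate 2, and Sox7 also without adult replicate 1 (adjusted p up to 0.151). A second Sox7 probe set, above the floor on 3 arrays, differed by -0.18. The median over the list was -2.21 from replicates 1 and 2, and -2.74 from replicate 3. In the list of lung capillary genes 0 of 7 passed with limma, with 5 lower and 0 higher at an unadjusted p under 0.05. Its brightest genes were the apelin receptor Aplnr (-3.88, adjusted p = 0.127) and the endothelin receptor Ednrb (-3.55, adjusted p = 0.0531).

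Among lymphatic genes 3 of 4 fell, where 4.57% of all genes tested were called lower. The median of the 4 was -2.87, and the gene that did not pass was the secreted glycoprotein gene Reln (-0.55, adjusted p = 0.493, groups overlapping). Lyve1, a hyaluronan receptor of lymphatic vessels and some macrophages, read 9.19, 8.65 and 7.49 in adult arrays and 12.28, 12.26 and 11.33 in E18 arrays (-3.51, SE 0.50, adjusted p = 0.0112). Prox1, the transcription factor that sets lymphatic identity, was under the floor on all adult arrays and was at least 3.29-fold lower there. Its adjusted p of 0.0319 is for the measured signals. Prox1 was tested only through its E18 arrays, so a lower adult signal was built into its being tested. Mmrn1, an adhesive glycoprotein of lymphatic vessels and platelets, differed by -2.32 (adjusted p = 0.0320). Lyve1 did not pass without adult replicate 2, E18 replicate 1 or E18 replicate 2 (adjusted p up to 0.0757), and Prox1 and Mmrn1 passed only without adult replicate 3 among such fits (adjusted p up to 0.181).

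Markers of other cells outside the epithelium moved in the same arrays. All 6 fibroblast genes fell, with a summed signal of 1751 to 8249 in adult arrays and 29211 to 43702 in E18 arrays, and the fibroblast factor Tcf21, named after its values were seen, was the only gene of these lists that passed in all 6 fits without 1 array (-4.44, adjusted p = 0.00460). A second Tcf21 probe set, also above the floor on all 6 arrays, differed by -0.05. Among pericyte genes 2 of 6 fell, among smooth muscle genes 2 of 3 and among mesothelial genes 3 of 4, against 4.57% of all genes tested. The defining markers were Col1a1 (-5.14, adjusted p = 0.0184), Wt1 (at least 2.72-fold lower, adjusted p = 0.0342 for the measured signals), Pdgfrb (-2.52, adjusted p = 0.206) and Acta2 (-1.90, adjusted p = 0.293). Wt1 was under the floor on all adult arrays and was tested only through its E18 arrays. The same held for Myh11 (at least 3.23-fold lower), 1 of the 2 smooth muscle genes that fell. A lower adult signal was built into the testing of both Wt1 and Myh11. Without adult replicate 2, E18 replicate 1 or E18 replicate 2, Col1a1 did not pass (adjusted p up to 0.0951), and Wt1 passed only without adult replicate 3. The summed signal of the other endothelial list was 6343 to 12361 in adult arrays and 18121 to 47390 in E18 arrays.

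Markers of blood cells differed among themselves. Of 6 leukocyte genes 0 passed with limma, with 0 lower and 3 higher at an unadjusted p under 0.05 and a median of 1.07. Cd3e, 1 of the 3, was under the floor on all E18 arrays and was tested only through its adult arrays. A higher adult signal was thus built into its being tested. At that threshold 21.6% of all genes tested differed in either direction. The summed signal of the 6 leukocyte genes was 32707.9 to 90417.8 in adult arrays and 26091.5 to 38432.5 in E18 arrays. The leukocyte surface gene Ptprc was bright in both groups (14.43 ± 0.68 in adult arrays, 13.31 ± 0.48 in E18 arrays, adjusted p = 0.174). Of 3 megakaryocyte and platelet genes 0 passed with limma, with 1 lower and 0 higher at an unadjusted p under 0.05, and their summed signal was 1305 to 4283 in adult arrays and 7199 to 7428 in E18 arrays. The platelet integrin Itga2b differed by -0.48 (adjusted p = 0.489). The haemoglobin gene Hba-a1 was under the floor on all 6 arrays, and the 1 erythroid gene tested, Alas2 of haem synthesis, did not pass (-2.77, adjusted p = 0.0551). Of 6 epithelial genes 0 passed, with 0 in either direction at an unadjusted p under 0.05, and 5 of the 6 had lower adult means. Their median difference was -1.24, with -2.37 from replicates 1 and 2 and 0.90 from replicate 3. The surfactant gene Sftpc, the 1 with a higher adult mean, was 14.56 ± 0.10 in adult arrays and 14.04 ± 0.14 in E18 arrays (adjusted p = 0.258), while its other probe set, above the floor on all 6 arrays, differed by -1.28. The adult cells were defined by Lyz2 and EpCAM, and the E18 cells by Muc1 and Pdpn. The part that the mixture of cells had in the signals of Vegfa and of the 9 other genes was not tested.

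**Figure D4:**
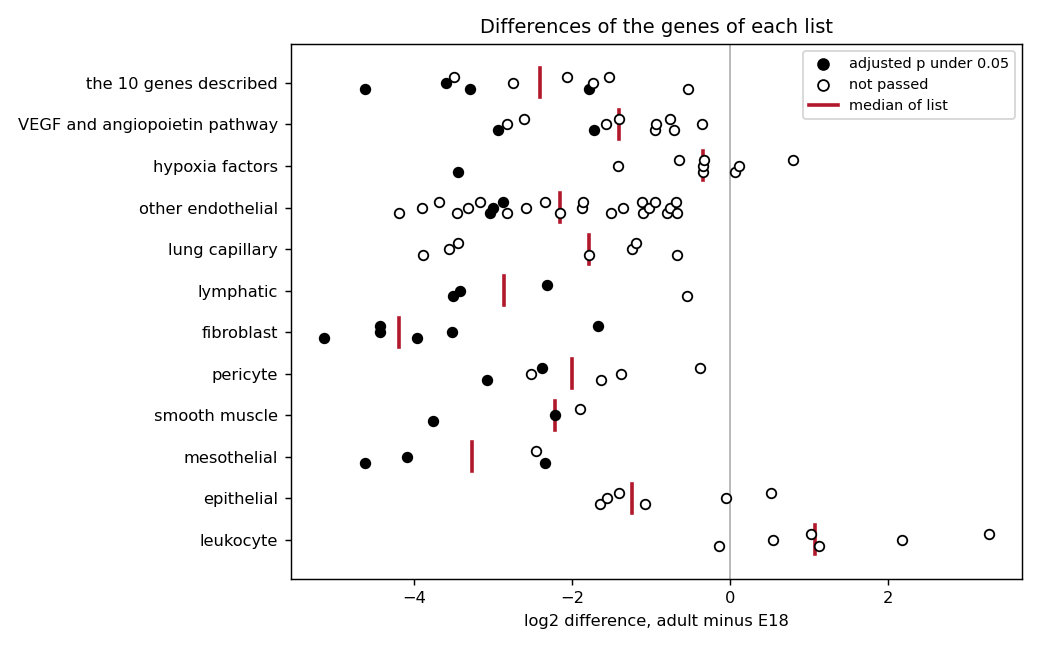
Log2 difference, adult minus E18 (x axis), of every gene tested in each list (rows), with the 10 genes described on top; filled points had an adjusted p under 0.05, open points did not, and red bars are list medians. Endothelial, lymphatic, fibroblast and mesothelial genes lie mostly below 0, hypoxia factors lie around -0.33 and leukocyte genes around 1.07.

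The genes whose signals followed these patterns most closely were sought over the 6 arrays among all genes tested, as a description in which the group difference and the shared arrays dominate. For Vegfa they were Ltbp4, Fbln5, Cavin4, Olfm4 and Letmd1, with Pearson correlations of 0.989 to 0.993. For the mean of the 9 other genes they were Actc1, Dock6, Ccm2l, Cinp and Rgs5, with correlations of 0.9937 to 0.9965. Rgs5 is a pericyte gene of the lists above and fell by 3.08 on the log2 scale (adjusted p = 0.0343), a call lost without adult replicate 1 or 2 or E18 replicate 1 or 2 (adjusted p up to 0.167). Each gene's own correlation with the mean of the other endothelial and angiopoietin genes was 0.947 to 0.986 for Cd34, Tie1, Cdh5, Tek, Angpt1 and Pecam1, and it was 0.907 for Flt1, 0.767 for Vegfa, 0.754 for Angpt2 and 0.694 for Kdr.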

How the data were processed

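RNA of 3 adult and 3 E18 samples was hybridised to 1 Affymetrix mouse 3′ array each, after RNeasy Micro extraction and 2-cycle amplification per the labels' protocols. The deposited values are signal intensity per probe set on a linear scale, and the submitters' processing notes name MAS5 and Affymetrix Expression Console. The arrays have a trimmed mean of 500.003 to 500.004 on every array without the outer 2% of values at each end. All values were above 0 and were log2 transformed here with no pseudocount.

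Probe sets with exactly 1 gene symbol in the platform's annotation (34945 of 45101) were used. Each gene was given by its brightest probe set over the 6 arrays. A gene was tested if at least 3 arrays were at or above the detection floor, set per array at percentile 40 of its probe sets, which kept 13335 of 18193 genes. The floor is a rank, at signals of 42.3 to 66.5 in adult arrays and 50.2 to 68.6 in E18 arrays. The test was limma's (version 3.58.1, R 4.3.3; intensity trend, two-sided, Benjamini-Hochberg over all genes tested, threshold 0.05). Every adjusted p of a gene comes from limma, in this fit or, where an alternative is named, in the fit of that alternative. Such fits pool the spread where leaving out an array leaves 2 in a group. "At least" marks folds against the floor where all arrays of a group were under it. Such a gene was tested only through the other group, which fixes its direction in advance, and its adjusted p is for the measured signals. On simulated data for this comparison with 13335 genes, 24% of changes of 2 on the log2 scale and 74% of changes of 4 were called. The simulation changed 50 genes at each size, with independent errors of equal spread in both groups. It held no array that stood apart, so the rates for these data can differ.

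The genes and lists were chosen with earlier results of these data known. The text names all 10 genes, from each pathway or vessel list up to 4 genes that passed by size of difference or otherwise the brightest 2, a fixed defining marker per other cell type, and the 5 nearest patterns. A lone gene called in a list is named too, as are Myh11 and Cd3e, which were tested through 1 group only. Of 103 list entries 96 were on the array. Alternatives were other scalings, filters, a pseudocount of 16, averaged probe sets, no trend, blocks and leaving out arrays.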

Additional observations from a re-analysis of the deposited data

How the results depend on the processing

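Over 18 alternatives and the 10 genes, 179 differences were obtained, of which 0 reversed, 27 no longer passed, 12 newly passed and 140 kept their side of the threshold. Angpt1 was not tested with probe sets averaged. The causes of the changes below were not tested, and values are differences in log2 unless they are counts. Quantile normalization called 714 of all 13334 genes tested, 2 of the 10 genes and 14 other listed genes (22 otherwise), with Tie1 at -3.40 and Cdh5 at -3.11 not passing. With arrays centred on their medians Cdh5 (-3.14) did not pass. These scalings moved the median of all genes to -0.0531 and -0.0204. With low values raised to the floor Tie1 (-2.29) did not pass, with a pseudocount of 16 Pecam1 (-2.71) passed, and without the intensity trend Cdh5 (-3.29) did not. With probe sets averaged 672 of all 12227 genes tested passed, and 2 of the 10 genes did, without Vegfa (-1.32) and Cdh5 (-1.65). With E18 replicates 1 and 2 averaged, limma called 63 genes, 0 of the 10 (6 at an unadjusted p under 0.05) and 1 other listed gene, Vegfa being -1.88, Tie1 -3.20, Cdh5 -2.95 and Cd34 -4.23.

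With replicate 3 as a block against replicates 1 and 2, 897 of all 13335 genes tested passed. Among them were 7 of the 10 genes and 35 other listed genes, adding Tek (-2.75), Angpt1 (-1.73) and Pecam1 (-3.50). In replicates 1 and 2 alone 2996 of all 13335 genes tested passed. Among them were 8 of the 10 and 60 other listed genes, adding Kdr (-3.54), Tek (-2.74), Angpt1 (-1.77) and Pecam1 (-3.55). Replicate numbers are shared by the groups, but deviations of same-numbered arrays correlated at 0.0364, -0.14 and -0.0579 across genes, so they were not taken as pairs. With the replicate number as a block 492 genes passed, Vegfa (-1.78, adjusted p = 0.0612) did not and Tek (-2.75, adjusted p = 0.0263) did. Vegfa relative to another gene reversed in replicates 1 and 2 alone for Flt1 (0.17) and Angpt1 (0.26).

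Leaving out 1 array gave 66 to 2770 genes (798 with all), 0 to 6 of the 10 genes (0 without E18 replicate 1 or 2, with 6 at an unadjusted p under 0.05 in each) and 1 to 45 other listed genes. The differences ranged from -1.97 to -1.58 for Vegfa, -2.85 to -1.52 for Kdr, -4.37 to -3.20 for Tie1, -4.36 to -2.96 for Pecam1, -3.97 to -2.66 for Cdh5 and -5.42 to -4.21 for Cd34. Vegfa relative to Kdr ranged from -0.45 to 1.27, relative to Flt1 from -0.75 to 0.33 and relative to Angpt1 from -0.36 to 0.55. All values of Tie1 here except the one with low values raised to the floor (-2.29) use adult signals under the floor on every array, so they give its direction and not its size. Adult Pecam1 was under the floor on 2 of 3 arrays.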
